A study of Mus musculus with 15 samples.

Results

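The 8621 peaks described here are the stretches of accessible DNA that stood in one of 2 ATAC-seq peak lists and not in the other: 4245 found in the wild-type (WT) list only and 4376 found in the mTOR kinase knock-in (KI) list only. They were picked from 34619 peaks compared, and the series holds 64896 deposited peaks in all. ATAC-seq uses a transposase that cuts and tags accessible DNA, and a peak is a region where such cuts pile up. The compared lists were the 17316 highest-scoring KI peaks on chromosomes 1 to 19 and X and all 17303 WT peaks on those chromosomes, since 13 of the 17316 WT peaks lay on chromosome Y. Peaks of the compared lists that overlapped by 1 bp or more were counted as shared. The score is the value the authors' peak caller gave each peak, and it was used to rank peaks within a list and never between lists.

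The cells were haematopoietic stem cells (HSC) sorted from adult mice given poly(I:C), which switches on the Mx1-Cre transgene through its interferon-responsive promoter. WT controls were Mx1-Cre-/-;mTORflox/flox, KI mice were Mx1-Cre+/-;mTORflox/knockin, and the knockout (KO) mice used as a further readout were Mx1-Cre+/-;mTORflox/flox. Every genotype thus carried at least 1 floxed Mtor allele and every mouse received poly(I:C), but the control mice had no Cre. Each genotype gave 1 ATAC-seq library made from 50000 sorted cells. With 1 library a side there is no replicate check and no test between genotypes. The labels call the WT and KO data re-analysed and do not say so of KI, so a difference of batch, an effect of Cre and an effect of the Mtor allele cannot be told apart. In such bulk libraries a shift in the mix of cells and a change of accessibility within each cell cannot be told apart either. The intervals given with shares are Wilson 95% intervals over peaks and cover counting error only.

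mTOR is a serine/threonine kinase that forms the core of complexes 1 and 2. Complex 1, held by Raptor, couples amino acids, energy and growth factors to translation and ribosome production, whereas complex 2 acts on AKT and related kinases. In stem cells of the marrow the pathway is known for its part in the balance between quiescence and growth. A kinase knock-in is meant to keep the protein without its kinase activity, whereas a knockout removes the protein, and the series set them side by side to separate the roles of mTOR that need the kinase from those that do not.

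Gene starts are the places where transcription begins, and the promoters of 10 genes with a one-list start peak are shown first. They run from 250 bases before to 50 bases after the start, were taken from RefSeq (GRCm38.p6, the assembly behind mm10) and are printed 5′ to 3′ in the direction of the gene. Capitals mark matches on either strand to any of 14 short motifs, which are spelled out with the results on promoter sequence. Positions count from 0 at the start, with negative values before it. The first 5 belong to genes with a start peak in KI only, chosen because they had high-scoring peaks or stand for a pathway described later: Trim12a (chr7:104315446-104315745, minus strand) and its neighbour Trim5 (chr7:104288057-104288356, minus), Srxn1 (chr2:152105274-152105573, plus), Tsc2 (chr17:24632578-24632877, minus) and Cxcl10 (chr5:92348840-92349139, minus).
Trim12a: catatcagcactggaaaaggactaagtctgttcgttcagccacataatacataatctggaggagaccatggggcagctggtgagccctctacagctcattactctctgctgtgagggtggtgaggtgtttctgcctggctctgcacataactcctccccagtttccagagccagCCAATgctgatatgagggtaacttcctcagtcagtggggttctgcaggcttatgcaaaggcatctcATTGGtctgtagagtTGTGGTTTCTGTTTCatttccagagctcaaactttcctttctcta
Trim5: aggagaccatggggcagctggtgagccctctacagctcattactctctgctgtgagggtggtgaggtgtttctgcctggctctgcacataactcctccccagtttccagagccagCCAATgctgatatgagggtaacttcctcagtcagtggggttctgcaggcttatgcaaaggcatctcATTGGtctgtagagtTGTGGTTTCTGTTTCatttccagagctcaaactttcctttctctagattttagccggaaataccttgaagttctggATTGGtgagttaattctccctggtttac
Srxn1: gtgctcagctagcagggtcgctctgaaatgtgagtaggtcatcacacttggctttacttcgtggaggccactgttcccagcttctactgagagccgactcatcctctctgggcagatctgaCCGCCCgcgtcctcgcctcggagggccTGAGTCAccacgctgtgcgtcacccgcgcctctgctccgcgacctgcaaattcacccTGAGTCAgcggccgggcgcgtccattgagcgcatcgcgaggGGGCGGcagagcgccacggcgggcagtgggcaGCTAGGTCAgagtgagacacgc
Tsc2: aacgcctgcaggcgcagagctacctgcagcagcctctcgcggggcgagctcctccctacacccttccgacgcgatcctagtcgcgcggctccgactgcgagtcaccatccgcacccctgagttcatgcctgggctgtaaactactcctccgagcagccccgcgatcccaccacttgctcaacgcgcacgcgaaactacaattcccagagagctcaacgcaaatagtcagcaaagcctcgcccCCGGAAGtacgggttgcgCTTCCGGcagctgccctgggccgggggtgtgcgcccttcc
Cxcl10: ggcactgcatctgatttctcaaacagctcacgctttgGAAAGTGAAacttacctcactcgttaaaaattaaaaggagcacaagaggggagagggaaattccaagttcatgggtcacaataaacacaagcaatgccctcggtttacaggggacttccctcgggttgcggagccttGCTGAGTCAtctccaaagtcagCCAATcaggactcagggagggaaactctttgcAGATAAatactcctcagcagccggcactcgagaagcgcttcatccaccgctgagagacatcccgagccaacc

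The KI-only peak covered all 300 bases in each of these 5. The Trim12a and Trim5 promoters were the same sequence, shifted by 59 bases and identical over the 241 bases they share, so short reads from one cannot be told from the other there. Srxn1, which encodes the sulfiredoxin that repairs oxidised peroxiredoxins, held the AP-1 letters at positions -102 and -45. Tsc2, the GTPase-activating partner of Tsc1 that restrains complex 1, held the ETS letters at positions -8 and 10. Cxcl10, an interferon-induced chemokine, held the interferon-response letters at position -213.

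The other 5 promoters belong to genes with a start peak in WT only: Zfp429 (chr13:67399718-67400017, minus) and Vipr2 (chr12:116077476-116077775, plus), which had some of the highest-scoring WT-only start peaks, the stem cell markers Procr (chr2:155750967-155751266, plus) and Cd34 (chr1:194938571-194938870, plus), and the interferon-induced GTPase gene Gbp2 (chr3:142620413-142620712, plus).
Zfp429: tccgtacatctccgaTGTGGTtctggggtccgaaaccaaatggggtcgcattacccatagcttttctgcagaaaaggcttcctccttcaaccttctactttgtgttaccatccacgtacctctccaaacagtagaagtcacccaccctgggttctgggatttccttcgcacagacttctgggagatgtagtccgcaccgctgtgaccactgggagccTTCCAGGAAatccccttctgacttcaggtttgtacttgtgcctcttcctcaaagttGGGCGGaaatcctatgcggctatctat
Vipr2: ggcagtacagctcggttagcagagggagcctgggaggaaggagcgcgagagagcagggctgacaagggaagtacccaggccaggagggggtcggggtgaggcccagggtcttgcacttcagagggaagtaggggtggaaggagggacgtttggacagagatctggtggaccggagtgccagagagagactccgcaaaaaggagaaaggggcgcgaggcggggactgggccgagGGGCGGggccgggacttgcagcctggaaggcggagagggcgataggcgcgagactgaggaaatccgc
Procr: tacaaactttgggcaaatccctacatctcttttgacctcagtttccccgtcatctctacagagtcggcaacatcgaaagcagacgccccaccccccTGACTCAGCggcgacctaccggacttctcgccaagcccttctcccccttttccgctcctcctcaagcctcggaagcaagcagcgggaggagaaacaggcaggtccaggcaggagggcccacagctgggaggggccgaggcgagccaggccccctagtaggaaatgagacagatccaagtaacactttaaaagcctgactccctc
Cd34: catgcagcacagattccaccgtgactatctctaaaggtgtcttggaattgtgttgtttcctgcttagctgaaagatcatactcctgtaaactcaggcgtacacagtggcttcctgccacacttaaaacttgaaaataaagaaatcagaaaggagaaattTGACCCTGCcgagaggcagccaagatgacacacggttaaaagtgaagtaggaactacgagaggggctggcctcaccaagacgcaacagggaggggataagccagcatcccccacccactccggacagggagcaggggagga
Gbp2: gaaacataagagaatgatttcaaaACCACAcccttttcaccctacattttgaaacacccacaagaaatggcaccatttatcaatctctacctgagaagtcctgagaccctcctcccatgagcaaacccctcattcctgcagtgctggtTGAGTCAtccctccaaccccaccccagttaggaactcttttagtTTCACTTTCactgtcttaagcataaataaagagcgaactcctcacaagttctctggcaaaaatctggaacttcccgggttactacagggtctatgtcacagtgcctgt

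The WT-only peak covered 156 of the 300 bases at Procr and all of them in the other 4. Procr held overlapping AP-1 and antioxidant-response letters at position -154, and Gbp2 held interferon-response letters at position -58.

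In both directions one-list peaks were mostly peaks with low scores in their own list. One-list peaks made up 24.5% (23.9 to 25.2) of the compared WT list and 25.3% (24.6 to 25.9) of the KI list. When each list was divided by score into 10 equal bins, 2 of 1731 WT peaks and 2 of 1732 KI peaks in the highest bin were one-list peaks. In the lowest bin the share was 60.9% in WT and 65.9% in KI. The lists were ranked and cut on this same score, so the gradient depends on the cut and is not a separate result. With only the 5000 highest-scoring peaks of each list, one-list peaks made up 19.8% of each. WT-only peaks had a median score of 63.0 and a median width of 424 bp, against 118 and 664 bp for shared WT peaks. KI-only peaks had a median score of 95.5 and a width of 442 bp, against 177 and 728 bp. The KI list reached its cut at a distal peak whose nearest gene was Mtx3 (score 77.93), and the first peak left out lay at a start of Pik3cd (77.92).

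**Figure D1:**
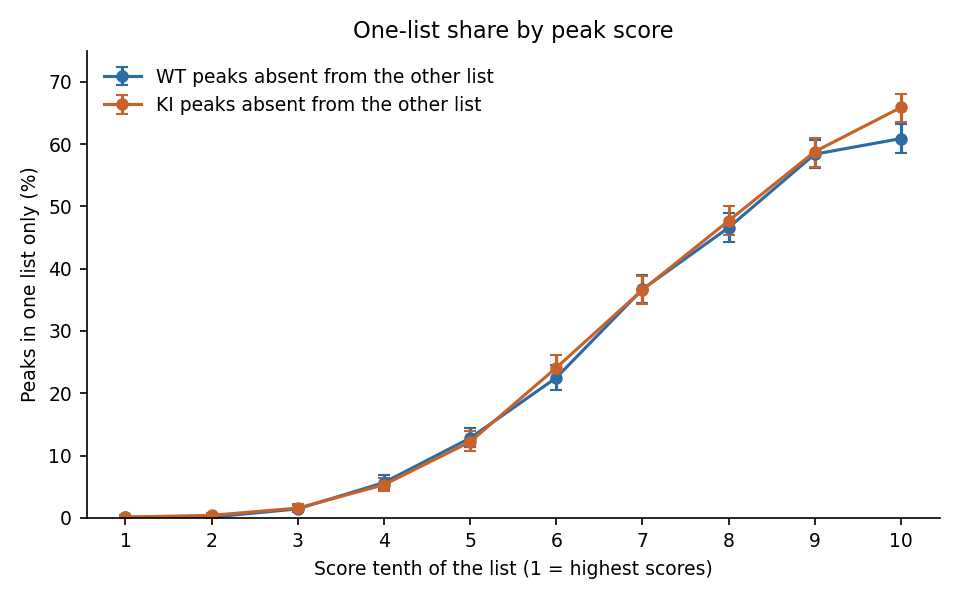
Share of peaks (%) found in one list only, in 10 equal bins of the list's own scores from highest (1) to lowest (10). Points are WT peaks (blue) and KI peaks (orange) with Wilson 95% intervals. Both curves lie at or below 1.56% in the first 3 bins and end at 60.9% for WT and 65.9% for KI. The lists were cut on the same scores, so the curves depend on the cut.

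The 2 directions differ in what absence means. WT was compared whole, so a KI-only peak overlapped no WT peak of the file. The KI file held 11057 further peaks below the cut, and 1988 of the 4245 WT-only peaks overlapped one of these, which leaves 2257 with no KI peak at all. Few one-list peaks were near misses: a peak of the other list lay within 500 bp of 4.43% of WT-only and 2.86% of KI-only peaks. Genes often had both kinds. One-list peaks were assigned to 3099 genes in WT and 3222 in KI, counting distal peaks within 50 kb, and 848 genes, 27.4% of the first set and 26.3% of the second, were in both.

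Gene starts had the lowest one-list share. Within 1 kb of a gene start 944 of 9355 WT peaks (10.1%) and 1013 of 9335 KI peaks (10.9%) were one-list peaks. Inside gene bodies these were 1598 of 3927 (40.7%) and 1669 of 3974 (42.0%), and at distal places, outside genes, 1703 of 4021 (42.4%) and 1694 of 4007 (42.3%). Starts made up 22.2% of WT-only and 23.1% of KI-only peaks but 64.4% and 64.3% of shared ones. The median scores of shared start peaks were also higher (142 in WT and 215 in KI, against 87.3 and 129 in gene bodies), and how much of the difference between places goes with score was not tested.

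The KO list, which played no part in choosing the peaks, held more of the KI-only than of the WT-only peaks. A KO peak overlapped 45.4% (44.0 to 46.9) of KI-only and 31.5% (30.1 to 32.9) of WT-only peaks, against 88.6% and 88.4% of shared ones. At starts the shares were 54.7% and 38.8%, in bodies 42.1% and 29.0%, and at distal places 43.2% and 29.8%. Of the 100 highest-scoring peaks in each direction, 84 KI-only and 71 WT-only peaks had a KO peak. The WT-only peaks with no KI peak in the whole file overlapped a KO peak in 452 of 2257 cases (18.4% to 21.7%), whereas those over a KI peak below the cut did so in 44.6% (42.4 to 46.8). The KO comparison shares Cre with KI and the re-analysis label with WT.

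**Figure D2:**
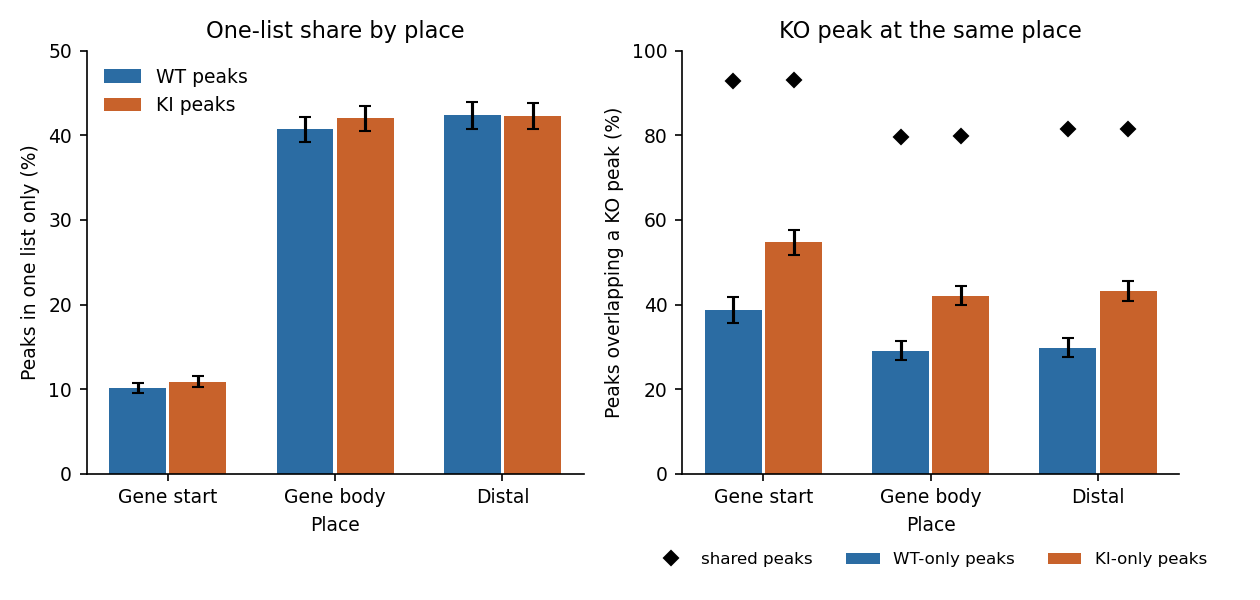
Left, share of compared peaks (%) found in one list only at gene starts, in gene bodies and at distal places, for WT (blue) and KI (orange). Right, share (%) of WT-only and KI-only peaks that overlap a KO peak, with shared peaks as diamonds, and bars carry Wilson 95% intervals. One-list shares are near 10% at starts and near 42% elsewhere, and KO overlaps more KI-only than WT-only peaks at each place.

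The strongest WT-only start peaks that overlapped no KI peak lay at Zfp429, a zinc finger gene (score 187, chr13:67399332-67400035), Pars2, a mitochondrial prolyl-tRNA synthetase (152, chr4:106650756-106651326), Vipr2, a receptor for vasoactive intestinal peptide (143, chr12:116077298-116078259), and Taok1, a MAP kinase kinase kinase (140, chr11:77607432-77608411). They were followed by Nfkb2, the p100/p52 subunit of NF-kB (122), the ubiquitin ligase gene Hectd2 (120), the costimulatory ligand gene Cd86 (120) and the thrombomodulin gene Thbd (118). A KO peak was present at Vipr2, Taok1, Nfkb2 and Thbd and at none of the other 4. The peaks at Taok1 and Nfkb2 (chr19:46305370-46306049) lay at starts listed within these genes. The outer starts of the 2 genes are at chr11:77625359 and chr19:46300994, and these peaks say nothing of accessibility there. Other strong WT-only peaks lay over a KI peak that fell below the cut: Rgs7 (165 in WT, over a KI peak of 65.2 on that list's own scale), Syt14 (156, over 70.6) and Ttl (152, over 62.2, in a peak shared with the start of Vinac1) at gene starts, Fhl3 (182, over 57.4) in the gene body and 1 near Cpsf6 (157, over 73.2, 57749 bp away). KO had a peak at each of these 5 places.

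KI-only start peaks were led by Trim12a (score 321, chr7:104314499-104316082). Next came Txndc5, a disulfide isomerase of the endoplasmic reticulum (270, chr13:38527757-38528637), Trim5 (262, chr7:104287963-104288509) and Srxn1 (237, chr2:152105095-152105912). A single peak near both Tssk6 and Ndufa13 (226), Kbtbd6 (225) and Btbd6 (220) followed. KO had a peak at each of these places. The peak at Txndc5 lay inside the gene and outside the 300 bases of its first annotated start. That at Btbd6 (chr12:112976216-112977095) also lay at a start listed within the gene, whose outer start is at 112974260.

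The Trim genes came from a cluster of tripartite-motif genes on chromosome 7, several of which act in innate defence against retroviruses. Of its 10 members 4 were KI-only at the start, namely Trim12a, Trim5, Trim30d (157) and Trim6 (106), of which all 4 had a KO start peak. Trim30c was WT-only (95.4) with no KO peak, Trim34a, Trim12c and Trim30a were shared, and Trim34b and Trim30b had no start peak in the compared lists. Because members of the cluster are close copies, the assignment of reads to one of them is uncertain.

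In gene bodies the highest WT-only peak, Aida (score 412, chr1:183299082-183299629), was also the highest-scoring of all WT-only peaks, followed by E030030I06Rik (267), and KO had a peak at both. Grb10, an imprinted adaptor that mTOR complex 1 phosphorylates and that dampens insulin signalling, had a WT-only body peak of 161 (chr11:12025632-12026594) with a KO peak. Tusc3 (143), Ank2 (137) and Tox, an HMG-box regulator of lymphoid development (134), had WT-only body peaks with KO peaks, and Efcab12 (146) and C2cd5 (141) had none in KO. KI-only body peaks were led by Ppm1h, a PPM-family phosphatase (391, chr10:122886123-122886477), Sfi1 (346), the sodium-chloride cotransporter gene Slc12a3 (294) and Ms4a20 (261). Oxr1 (224), Peg10 (221) and Fer1l6 (221) were also among the 8 strongest, and each of these named genes had a KO peak.

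At distal places WT-only peaks were led by 1 near Spag9 (164, 7270 bp away), Gm4981 (157), Ybx3 (131, 45200 bp away) and Smgc (131), of which Ybx3 had a KO peak. KI-only distal peaks were led by 1 near Gm40363 (300), a second near the same gene (197), Mid1 (242, 4808 bp wide), Stk25 (241) and Niban2 (210). The peak near Niban2 was the one KI-only peak without a KO peak among the 24 described by place, whereas 12 of the 24 WT-only peaks chosen the same way had one.

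At the level of genes, 794 of 9951 genes with a WT start peak (7.98%) had it in WT only, and 916 of 10076 genes with a KI start peak (9.09%) had it in KI only. A KI start peak below the cut was present at 515 of the 794. Again 782 of the 794 and 903 of the 916 lay below the median of their list's start scores, which also depends on the cut. Below that median 15.7% of genes were WT-only and 17.9% KI-only. The 30 gene lists together, of 1117 genes, came close to these shares, with 54 of 739 (7.31%) WT-only and 73 of 761 (9.59%) KI-only. At or above the median, 0.241% of all genes were WT-only and 0.258% KI-only. Lists below are read against the share over all genes, and for some the number of genes below or above the median is given. Each count is a description of these libraries.

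Stem cell markers check the label. Of 36 genes, 17 had a start peak in WT and 13 in KI, and 12 of these were shared, including the transcription factor genes Tal1, Lyl1, Mecom, Meis1, Runx1 and Hlf and the receptor gene Kit. The surface marker genes Slamf1, Ly6a and Tek had no start peak in either compared list. WT-only start peaks were found at 5 of the 17 genes (29.4%), among them Procr, the endothelial protein C receptor (92.7), Cd34 (71.7), the niche ligand gene Angpt1 (69.8) and the repressor gene Gfi1 (67.5). None of the 5 had a KO start peak. KI-only peaks were found at 1 of 13, Cdkn1c, the p57 cell-cycle inhibitor (80.8), where KO also had one. The count rests on the cut, since 4 of the 5 had a KI start peak below it (75.4 at Angpt1, 69.3 at Cd34 and 61.2 at Gfi1 among them). Counted against the whole KI file, Procr alone was WT-only, and with both lists uncut KI-only genes numbered 6 against 1. Of the 17 members, 13 were below the median of WT start scores.

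Away from starts Prdm16 and Mecom, both of the PR-domain family needed by stem cells, had 3 WT-only peaks each. Those of Prdm16 were all in the gene body, scored 119, 54.4 and 51.4, and the strongest lay over a KI peak below the cut and had a KO peak. Those of Mecom scored 76.3, 65.6 and 54.3. KI-only peaks lay in or near Fli1 (134 and 78.9), an ETS factor of stem cells and megakaryocytes, and on either side of Slamf1 (90.2 and 88.8), the CD150 antigen used to sort stem cells. Over the list, 11 genes had WT-only and 11 had KI-only body or distal peaks. Over all 21641 genes the shares with such a peak were 10.7% and 10.9%.

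Erythroid genes had one-list start peaks in KI and none in WT. Of 29 genes 10 had a WT start peak, all of them shared, and 15 had a KI start peak, of which 5 (33.3%) were KI-only. These included Epor, the erythropoietin receptor (133, chr9:21962298-21962814), Trim10 (87.7) and Ank1, ankyrin 1 (83.5). KO had start peaks at 3 of the 5, Epor and Trim10 among them. Of the 15 genes with a KI start peak, 11 were below the median of KI start scores, all 5 KI-only genes among them. Over all genes 17.9% were KI-only below that median. Klf1, the master regulator of the lineage, had a KI-only peak in its body (207, chr8:84903106-84903652, centred 1397 bp after the start) and no KO peak, and Slc4a1, the band 3 anion exchanger, a KI-only distal peak (93.0). Away from starts, 6 of the 29 genes had WT-only peaks and 5 had KI-only peaks, against 10.7% and 10.9% of all genes. The carbonic anhydrase gene Car2 had 2 WT-only distal peaks (72.3 and 69.5). The globin genes Hba-a1, Hba-a2 and Hbb-bt had no start peak in the WT or KI file, Hbb-bs had a KI peak below the cut (70.4), and Gata1 had none. With a start window of 500 bp KI-only genes were 2 and WT-only genes 0. With the 5000 highest-scoring peaks of each list the count turned to 2 WT-only and 1 KI-only gene.

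Markers of other blood cells were split. Megakaryocyte genes gave 3 of 10 WT-only (F2rl2 79.9 and Plek 59.2 among them, each over a below-cut KI peak) and 2 of 9 KI-only (Gp1ba 107 and Cd9 86.5). Granulocyte and monocyte genes gave 4 of 9 WT-only, led by the fractalkine receptor gene Cx3cr1 (86.3), which alone of the 4 had no KI start peak, and 2 of 7 KI-only, Spi1, the PU.1 factor of myeloid cells (113), and the Fc receptor gene Fcgr1 (94.7). Elane, Ly6g, Camp and Ltf, which mark maturing neutrophils, had no start peak in the WT or KI file. The neutrophil and monocyte genes Mpo (68.1), S100a8 (59.6), S100a9 (54.4), Csf1r (68.9), Irf8 (75.3) and Ms4a6c (60.1) had KI start peaks below the cut and none in WT. With both lists uncut the list gave 1 WT-only and 8 KI-only genes, and against the whole KI file 1 and 2. Of its 9 WT start genes, 8 were below the median of WT start scores. Away from starts 10 genes of the list had WT-only and 9 had KI-only peaks, where 10.7% and 10.9% of all genes had one. The WT-only peaks included distal ones near Cebpa (92.6) and Csf2ra (77.9). Cebpb had 3 KI-only distal peaks (103, 100 and 88.6) and Itgam, the CD11b integrin, a KI-only body (113) and distal peak (105).

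Few lymphoid genes had a start peak in either list. B lymphoid genes gave 1 of 6 in WT, Ebf1 (65.7, over a below-cut KI peak), and 0 of 5 in KI. T and NK genes gave 0 of 3 in WT and 1 of 4 in KI, Eomes (102). Bach2, a repressor of effector lymphoid programmes, had 4 WT-only body or distal peaks (52.7 to 107), Il2ra had 3 (53.5 to 91.4), and the cytokine receptor gene Flt3 had 2 KI-only body peaks (123 and 100). Antigen presentation genes were split between WT (Cd86 and H2-Eb1, 58.5) and KI (the lectin gene Clec10a, 130, and the class II genes H2-Ab1, 86.0, and H2-Aa, 81.5). Mast cell and eosinophil genes gave 1 of 4 in WT, Prg2 (63.0), and 0 of 3 in KI. Endothelial and stromal genes gave 1 of 2 in WT, Plvap (62.1, over a KI peak of 77.6 just below the cut). In KI they gave 4 of 5, namely Col4a1 (117, in a peak shared with the divergent Col4a2), Sox17 (115), Col1a1 (91.1) and Kdr, the VEGF receptor (90.7). Against the whole KI file the counts of this list were 0 and 4. Of the 30 genes in that last list 25 had no KI start peak in the compared list. The part of any of these cell types in the results was not tested.

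**Figure D3:**
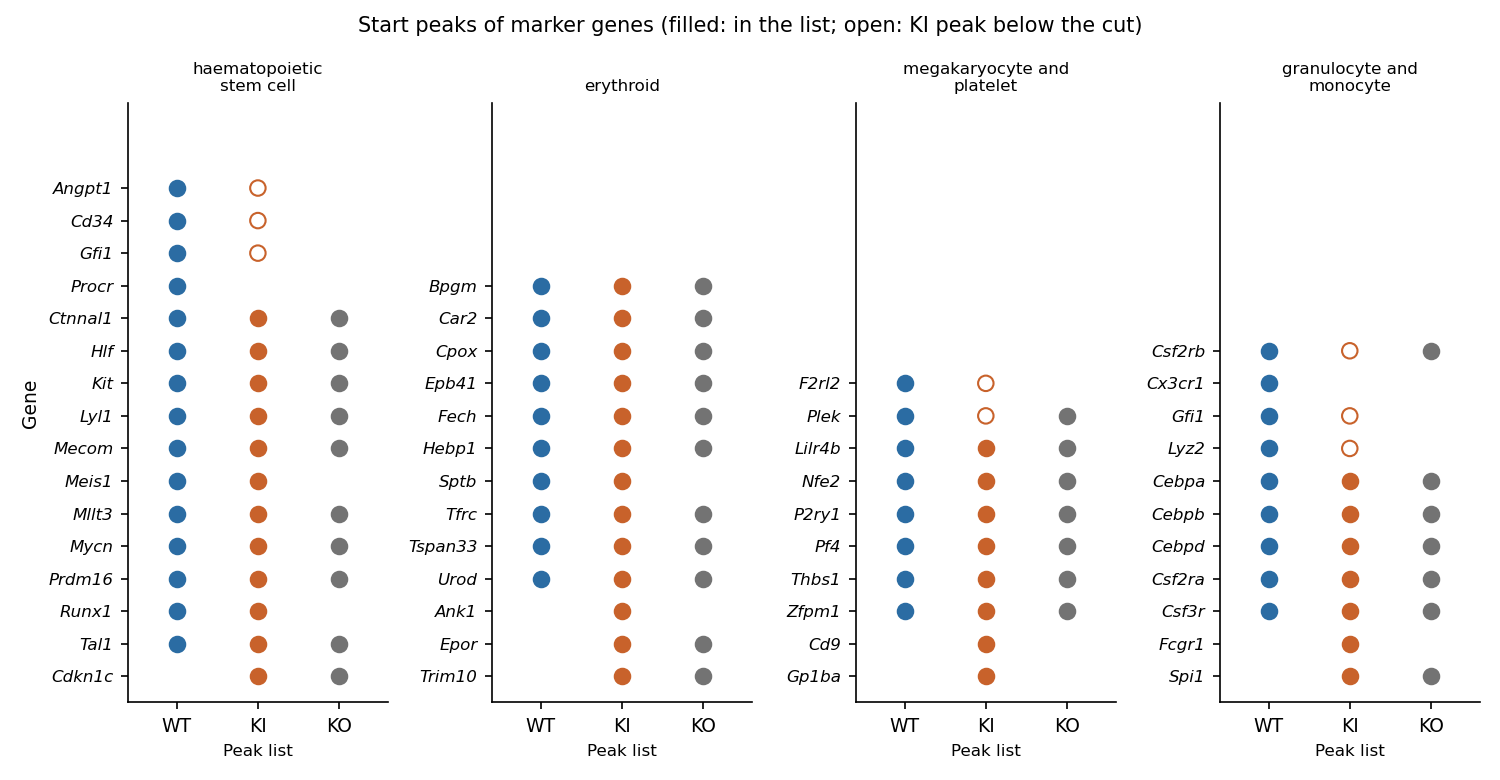
Start peaks of stem cell, erythroid, megakaryocyte and granulocyte or monocyte marker genes (rows) in the WT, KI and KO lists (columns). Filled points are peaks in the compared WT or KI list or in the KO file, open points are KI peaks below the cut, and genes without a compared WT or KI start peak, or not reported here, are not drawn. The stem cell genes with an open KI point and the erythroid genes without a WT point are the main differences.

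**Figure D4:**
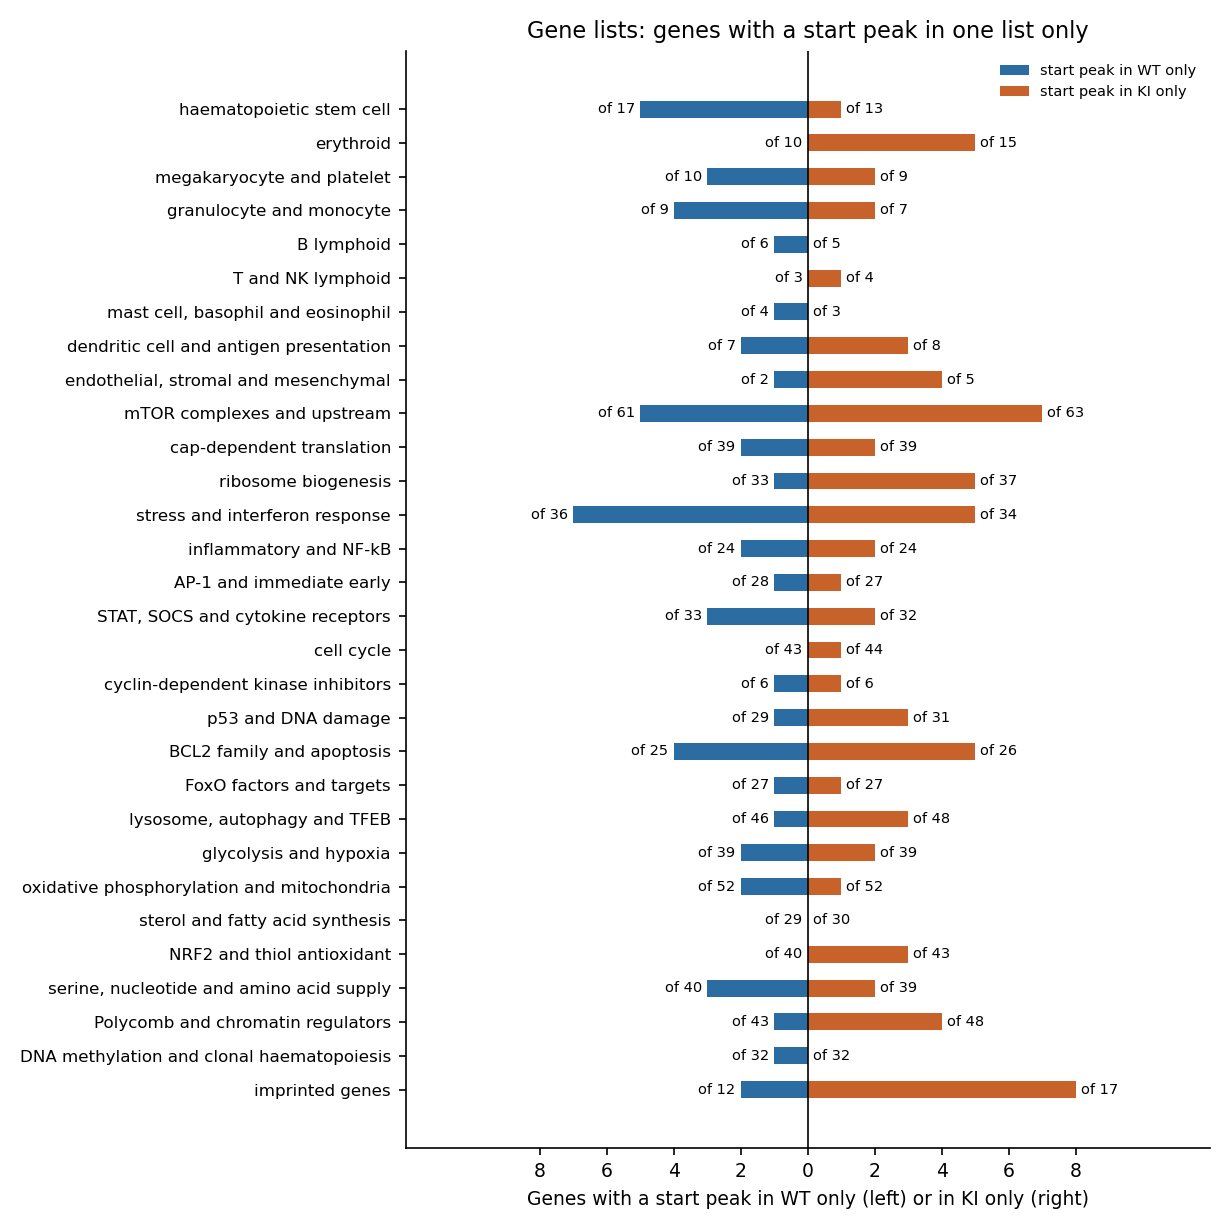
Number of genes in each of 30 gene lists with a start peak in WT only (left) or KI only (right), with the number that had a start peak in that list beside each bar. The longest bars are stress and interferon genes (7 of 36) on the left and imprinted genes (8 of 17) on the right. On the left, stem cell genes (5 of 17) and mTOR genes (5 of 61) follow. On the right, mTOR genes (7 of 63) follow, then 4 lists with 5 genes each, erythroid genes (5 of 15) among them.

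Genes of the mTOR pathway itself were near background. WT-only start peaks were found at 5 of 61 and KI-only peaks at 7 of 63 (11.1%). The WT-only genes were Sgk1, a kinase downstream of complex 2 (117), Castor2, related to the arginine sensor (103), Prkab1, an AMPK subunit (87.6), Lamtor5 of the lysosomal Ragulator (87.3) and the insulin receptor substrate gene Irs1 (78.0). All 5 had a below-cut KI start peak and a KO start peak. The KI-only genes were Pik3cd, the p110 delta PI3-kinase of leukocytes (153, chr4:149675919-149676354), Tsc2 (148, chr17:24632310-24632914, in a peak shared with the start of Nthl1), Telo2 (113), Rptor, which encodes Raptor (111), Inpp5d, the SHIP1 phosphatase (106), Prr5 (97.1) and Rps6kb2, an S6 kinase (84.5). KO start peaks were present at 3 of these 7 genes. Away from starts, Deptor, an inhibitor of both complexes, had a WT-only body peak (81.9) and Pik3cg had 2 KI-only distal peaks (103 and 79.6).

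Mtor had a shared start peak (chr4:148448060-148449268 in WT, score 341, rank 569, and chr4:148448229-148448836 in KI, score 210, rank 5075), and KO had no peak there. A body peak was present in all 3 lists. The KI-only peak nearest the gene lay at the start of its downstream neighbour Exosc10, an exosome subunit (chr4:148558242-148558752, score 89.3). Within 5 Mb of Mtor 22 of 113 WT peaks (19.5%) and 29 of 120 KI peaks (24.2%) were one-list peaks, against 24.7% and 25.7% on the rest of chromosome 4. Among chromosomes WT-only shares ran from 20.6% on X to 29.4% on 15.

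Processes downstream of mTOR gave mostly shared start peaks. Translation genes gave 2 of 39 in each direction: Larp1, a binder of TOP mRNAs (115), and Eef2 (54.5) in WT, and Eif3c (169) and Eif4g3 (149) in KI. Larp1 and Eef2 both had a KI start peak below the cut (74.5 and 66.8). Against the whole KI file the counts were 0 and 2. Ribosome biogenesis gave 1 of 33 in WT, Pes1 (83.5, over a below-cut KI peak). In KI it gave 5 of 37 (13.5%): Ubtf, the upstream factor of RNA polymerase I (135), Rrp12 (123), Bysl (123, in a peak shared with Med20), Nop58 (105) and Polr1e (88.1). Of these 5, 1 had a KO start peak. Lysosome and autophagy genes gave Tfec in WT (58.8) and Gaa, acid alpha-glucosidase (146), Becn1 (120) and Map1lc3b (91.2) in KI. Sterol and fatty acid genes gave 0 of 29 and 0 of 30, and cell cycle genes 0 of 43 in WT and 1 of 44 in KI, Ccnb2 (113). In WT 22 of the 29 and 28 of the 43 were at or above the median start score, where 0.241% of all genes were WT-only. Targets and members of the FoxO family, which AKT holds out of the nucleus, gave 1 of 27 in each direction. Among cyclin-dependent kinase inhibitors Cdkn2a was WT-only (79.2, over a below-cut KI peak) and Cdkn1c KI-only.

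Nutrient, redox and energy genes gave small counts. In the NRF2 and thiol list 3 of 43 genes were KI-only, Txndc5 and Srxn1 among them, and 0 of 40 were WT-only. The amino acid transporter genes Slc3a2, the heavy chain of the leucine transporter (194), and Slc36a4 (192) were KI-only with KO peaks. Umps (79.6) and Tyms (69.3), both of pyrimidine synthesis, and Slc38a1 (62.5) were WT-only over below-cut KI peaks. Of the prolyl hydroxylases that mark HIF for decay, Egln3 was WT-only (120, over a below-cut KI peak) and Egln1 KI-only (92.9). The oxidative phosphorylation list gave Ndufa9 (99.0) and Ndufa1 (94.9, in a peak shared with Rnf113a1) in WT and Cox6c (166) in KI. The peak at Ndufa1 lay over a below-cut KI peak.

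Interferon and stress genes, of interest because every mouse received poly(I:C), stood in both lists. Of 36 genes 7 were WT-only (19.4%), led by Gbp2 (110), the transcription factor gene Irf1 (74.7), Ifi47 (67.1) and the nucleic acid sensor gene Zbp1 (65.2). Of 34 genes 5 were KI-only (14.7%), led by Mx1 (130, chr16:97462766-97463490), Cxcl10 (129), Ifi35 (103) and Oas1b (99.3). Irf1 and Zbp1 had KI start peaks below the cut (71.6 and 61.4). Against the whole KI file 4 genes were WT-only and 5 KI-only, and with both lists uncut 4 and 12. The start of Mx1 also had a KO peak. KI and KO mice carry the Mx1-Cre transgene and WT mice do not, and cuts in the transgene's Mx1 promoter and in the gene's own promoter cannot be told apart in these lists. The NF-kB list gave Chuk (70.5, over a below-cut KI peak) and the chemokine gene Cxcl2 (60.6) in WT. In KI it gave Tnfaip2 (103) and the adhesion gene Icam1 (85.8). Stat5b (84.7) and Lifr (74.0, over a below-cut KI peak) were WT-only, and Il10rb (144) and Il4ra (117) were KI-only. Fosb was the KI-only (104) and Ier3 the WT-only (65.4) immediate early gene.

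Cell death genes gave 4 of 25 in WT and 5 of 26 in KI. The WT-only genes were the caspase genes Casp1 (111) and Casp8 (53.3), the survival gene Bcl2l2 (90.9) and Bcl2l14 (54.4). Of these 4, Bcl2l14 alone had no KI start peak, so that against the whole KI file the counts were 1 and 5. The KI-only genes included the effectors of mitochondrial permeabilisation Bax (98.3) and Bak1 (93.5), the BH3-only gene Bmf (120) and Bcl2a1d (95.3). Bmf also had a KI-only distal peak (167), and KO had a peak at both places. Among p53 genes, Phlda3 was WT-only (69.9, over a below-cut KI peak) and Mdm4, a brake on p53 (147), was KI-only. Chromatin regulators gave 1 of 43 in WT, Ring1 (72.6, over a below-cut KI peak). In KI they gave 4 of 48: Ezh1, a Polycomb methyltransferase (139), Cbx2 (95.2), Chd4 (91.4) and Kmt2d (87.1). Arid1b had 3 KI-only body peaks (178, 79.3 and 78.4), and Dnmt3a, a de novo DNA methyltransferase often mutated in clonal haematopoiesis, had 1 (158). The clonal haematopoiesis list gave Bcor in WT (61.3) and none in KI.

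Imprinted genes, which are expressed from 1 parental copy, had the highest KI-only share among the lists with at least 10 start genes: 8 of 17 (47.1%), against 2 of 12 in WT. The antisense RNA gene Kcnq1ot1 (215, chr7:143296242-143296886) and Cdkn1c belong to the same imprinted domain, and both had KO start peaks. The others were Ppp1r9a (132), Peg13 (94.2), Phactr2 (93.7), Ndn (82.3), and Peg3 and Usp29 (83.3), which share 1 bidirectional peak. KO start peaks were present at 5 of the 8 genes. Of the 17 genes with a KI start peak, 10 were below the median of KI start scores, and 7 of these were KI-only. Below that median 17.9% of all genes were KI-only. At Peg10 and Sgce, also a divergent pair, the lists held different peaks: WT had a start peak at chr6:4747801-4748499 (66.4), and KI had none there but a peak further into Peg10 at chr6:4749099-4749499 (221), where KO had one as well. Against the whole KI file the counts were the same, with a 500 bp start window they were 1 and 6, and with the 5000 highest-scoring peaks 2 and 1.

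Among 58 gene families the widest gap in numbers was in potassium and calcium channel genes, which govern membrane potential and calcium entry. WT-only start peaks were found at 14 of 30 (46.7%) and KI-only peaks at 5 of 21 (23.8%). Kcnu1 (91.2), Kcng3 (82.3) and Kcna3 (74.8) were among the highest in WT, each over a below-cut KI start peak, and Kcnj10 (128) and Kcnab1 (118) in KI. The median WT start score of the family was 74.1, against 138 over all genes, and 27 of its 30 WT start genes were below that median. Of the 14 WT-only genes 6 had a KI start peak below the cut. Ephrin, semaphorin and plexin genes, of cell guidance, gave 9 of 24 WT-only, led by Plxna3 (85.0), Sema4d (84.0), Plxnb1 (73.4) and Sema6a (71.8). They gave 4 of 19 KI-only, led by Sema3f (172) and Sema7a (115). Of the 24, 20 were below the median of WT start scores, and 4 of the 9 WT-only genes had a KI start peak below the cut. Caspase and NOD-like genes, a family named after its values were seen, gave 6 of 17 WT-only and 0 of 11 KI-only. Of the 17, 12 were below that median. The WT-only genes included Naip2, Naip5 and Naip6, close copies in which the placement of reads is uncertain, and 5 of the 6 had a KI start peak below the cut.

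Trim genes gave 3 of 32 and 6 of 35. Interleukin and receptor genes gave 4 of 12 in WT, among them Il16 (71.7) and Il18 (68.8), and 6 of 14 in KI, led by Il10rb, Il4ra, Il17ra (95.8) and Il17d (92.3). CD antigen genes gave 4 of 21 and 7 of 24, the latter led by Cd226 (176), the tetraspanin genes Cd63 (151) and Cd81 (132), and Cd300lg (112). Adhesion and orphan receptor genes gave 7 of 30, led by Gpr132 (104), and 4 of 27, led by Gpr39 (116), and all 7 WT-only genes had a KI start peak below the cut.

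Among the largest families shares stood on either side of the 7.98% and 9.09% background. Solute carriers gave 19 of 167 (11.4%) and 22 of 171 (12.9%), with the glucose transporter gene Slc2a4 (115) in WT and Slc3a2, Slc36a4 and Slc35c1 (149) in KI. Zinc finger genes gave 14 of 297 (4.71%) and 16 of 300 (5.33%), with Zfp429 and Zfp346 (126) in WT and Zfp951 (202) and Zfp58 (193) in KI. Tmem genes gave 11 of 129 and 16 of 134, where the KI genes Tmem254b (190) and Tmem254c (164) are close copies whose reads may be split. RING and F-box genes gave 9 of 99 and 11 of 101, mitochondrial ribosomal proteins 5 of 63 and 7 of 65, and Fam genes 7 of 94 (7.45%) and 4 of 91 (4.40%). Copies also met in the heat shock genes: one WT-only peak (123) served the divergent Hspa1a and Hspa1l, while the near-identical Hspa1b was KI-only (112), so a difference between these copies is uncertain.

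**Figure D5:**
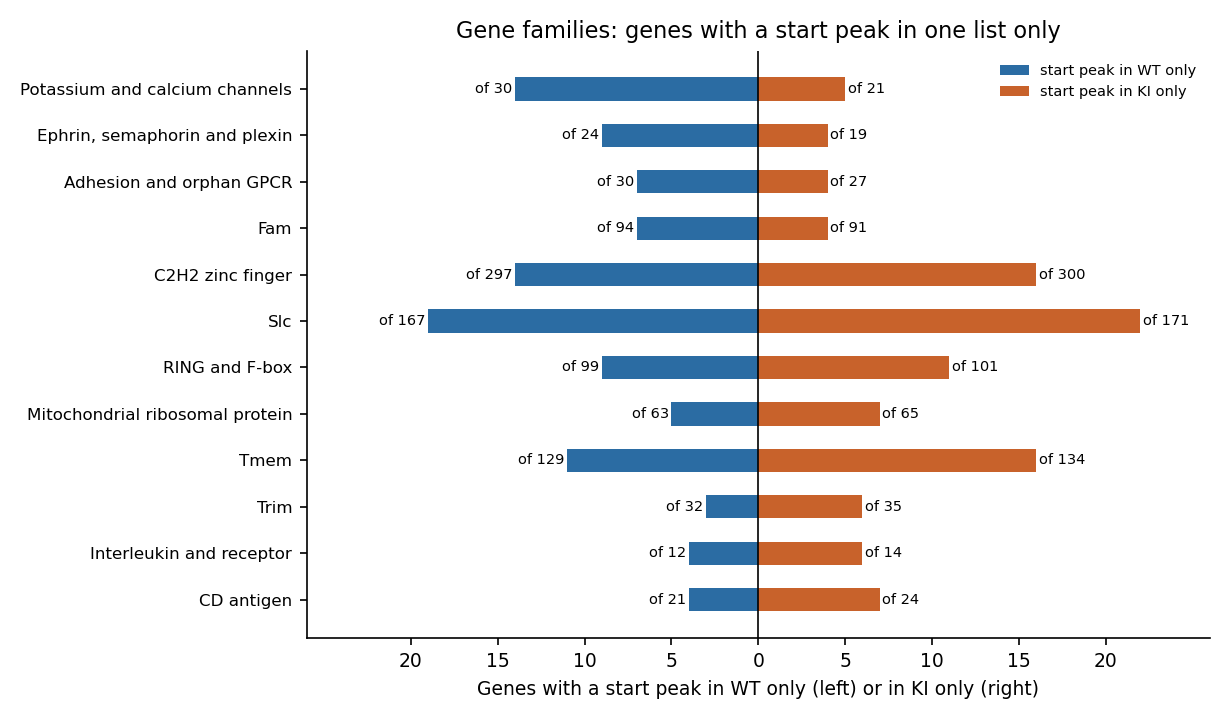
Number of genes with a start peak in WT only (left) or KI only (right) in 12 of the families with most such genes, ordered by the WT share minus the KI share, with the number of start genes beside each bar. Channels (14 of 30 in WT) are at the top and CD antigens (4 of 21 in WT, 7 of 24 in KI) at the bottom.

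Away from starts, 2316 of 21641 genes (10.7%) had a WT-only and 2369 (10.9%) a KI-only body or distal peak. Over all genes 40.7% of WT and 42.0% of KI body peaks, and 42.4% and 42.3% of distal peaks, were one-list peaks. Solute carriers had 53 WT-only and 70 KI-only peaks of this kind, of 296 WT and 312 KI peaks in all, start peaks included. Zinc finger genes had 37 and 39, of 401 and 394, and channels 22 and 28, of 79 and 75. Phosphodiesterases, which break down cyclic nucleotides, had 21 WT-only peaks in 8 of 26 genes and 11 KI-only peaks in 6. These were of 54 WT and 40 KI peaks in all, start peaks included. Of the 21 WT-only peaks, Pde4d held 7 and Pde11a and Pde4b 4 each. Integrins had 19 WT-only peaks in 13 of 31 genes and 11 KI-only peaks in 8, of 36 WT and 27 KI peaks in all. CD antigens had 15 and 21, of 54 and 63, led in KI by Cd47 with 3, the ligand that guards cells from phagocytosis.

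Some long genes gathered several one-list peaks. Pde4d, of 1300 kb, had 7 WT-only (61.5 to 111) and 5 KI-only peaks (80.5 to 129), so that the lists held different sites within 1 gene. In all it had 11 WT and 9 KI peaks. Trio, Pde4b, Gpc5, Slc8a1, Pde11a and Rarb had 5 WT-only peaks each, out of 5 to 10 WT peaks, and Ank2 was among those with 4. Rarb, the retinoic acid receptor beta, had 5 peaks in WT (54.0 to 70.7) and 0 in the compared KI list, 4 of them without any KI peak in the file, and KO overlapped none of the 5. Pdzd2 and Sgms1, a sphingomyelin synthase, had 6 KI-only peaks each, with KO peaks at 5 of 6 in Pdzd2 and at 1 of 6 in Sgms1. Rcsd1, Zmiz1, Pde4d and Nfia had 5 each, out of 7 to 11 KI peaks, and Hip1 and Gm50595 were among those with 4. Rcsd1 is the shortest of these genes at 61.1 kb, and its strongest peak scored 179. In both directions most genes had 1 such peak, 2620 of 3099 in WT and 2713 of 3222 in KI.

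By CpG ratio and GC content, promoters of one-list genes lay between those of genes with a start peak in both lists and those of genes with one in neither. Of the 10753 genes with neither, 943 had a KI start peak below the cut and 471 a KO start peak. The 300-base promoters of 17274 protein-coding genes of known strand were used, 1 per gene, at the listed start nearest the gene's outer start. A gene's call could rest on a peak at another of its starts. The shares therefore describe genes by call, and the promoter read need not hold the peak. The CpG ratio, the number of CG pairs over that expected from the base content, was at least 0.6 in 80.8% (79.9 to 81.7) of 7542 promoters of genes with a start peak in both lists, called shared here. It was so in 60.1% (56.2 to 63.8) of 621 promoters of WT-only genes and in 62.4% (58.9 to 65.9) of 719 of KI-only genes. For genes with neither it was so in 18.4% (17.5 to 19.2) of 8375 promoters. Median GC content was 62.0% for shared, 59.0% for WT-only, 59.0% for KI-only and 49.7% for the rest.

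All motifs were searched on both strands. Those of blood and growth factors were CCGGAAG for the ETS family, TGTGGT for the RUNX family, AGATAA for the GATA family and TTCNNNGAA for the STAT family. Those of stress and immediate responses were TGANTCA for AP-1, TGACNNNGC for the antioxidant response element bound by NRF2, GAAANNGAA for the interferon response element, TGACGTCA for the cyclic AMP response element and CACGTG for the E-box bound by MYC and USF proteins. Those common at promoters were GGGCGG for Sp1 proteins, GCGCATGCG for NRF1, AGGGGGCGC for the insulator protein CTCF, TATAAA for the TATA box and the letters of the CCAAT box. Some overlap, such as AP-1 and the antioxidant element, whose letters can cover the same bases. The ETS letters were in 20.9% of shared, 11.9% (9.60 to 14.7) of WT-only and 15.6% (13.1 to 18.4) of KI-only promoters, against 12.1% of all. The Sp1 letters were in 69.9% of shared, 56.5% of WT-only and 57.4% of KI-only promoters and in 46.9% of all. Interferon response letters were in 8.21% (6.30 to 10.6) of WT-only and in 79 of 719 (8.91 to 13.5%) KI-only promoters, against 6.03% of shared and 8.19% of all. RUNX letters were in 14.8% of WT-only, 14.6% of KI-only and 10.9% of shared promoters, against 14.8% of all, and GATA letters in 7.57%, 9.18% and 5.30%, against 9.99%. AP-1 letters were in 5.64%, 6.12% and 3.81%, against 7.09% of all, and antioxidant letters in 16.4%, 12.8% and 15.2%, against 13.1%. The intervals of the WT-only and KI-only shares overlapped for the ETS and interferon response motifs. A match describes letters and is not evidence that a factor was bound.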

How the data were processed

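Each ATAC-seq library had its own deposited peak list. Ranking used the score column, taken to be 10 times the negative log10 of MACS's p-value. That reading of the authors' score rests on its values. The submitters' processing notes name mm10 as the build, and CASAVA. Nothing in the sources used here states the aligner, duplicate handling, read shift or filters, and read depth is unknown.

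Lists were cut and overlapped in Python 3.11.15 (pandas 2.3.3), and the overlaps were checked against bedtools and on simulated peaks. Gene starts came from RefSeq promoters (GRCm38.p6). For the genes without a listed strand, 79.8% of 21641 having one, either annotated end counted as a start. A peak within 1000 bp of a start was a start peak, one inside a gene a body peak, and any other a distal peak, named by the nearest gene within 50 kb.

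Members, lists and families were chosen with earlier results of these data known. Named genes follow a fixed rule: the 8 highest-scoring peaks per direction and place, the 5 highest over a KI peak below the cut, the 8 genes with most peaks, up to 4 start and 2 other members per gene list, the leading 8 families, and Mtor. Other items were named outside this rule, after their values were seen. They are genes without a peak that check a cell type and the remaining start genes of the mTOR, erythroid, ribosome and imprinted lists. The whole Trim cluster and the caspase and heat shock families are also among them. The 12 RNA-seq samples were not analysed here, and some genes and 1 family that the rule names are not reported here.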

Additional observations from a re-analysis of the deposited data

How the results depend on the processing

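Gene counts and start shares were recomputed under 11 alternatives, 1 of them (genes of known strand) chosen after seeing the data, and counts of peaks under the 8 that can move them. Of 60 values, 34 stayed within 1.5 times the main count or inside the main interval, and 26 moved. Using every KI peak gave 2257 WT-only and 13207 KI-only peaks, 278 and 1858 genes, and start shares of 17.9% and 17.8%. Counting a peak absent only when the whole other file lacked it gave 2257 WT-only peaks, 278 genes and a start share of 17.9%. With the 10000 highest-scoring peaks of each list, 1983 and 1990 peaks were one-list peaks, with start shares of 37.3% and 47.7%. With 5000 of each, they were 989 and 988, with start shares of 67.1% and 75.3%. Cutting KI at the covered length of WT gave start shares of 23.9% and 25.9%. A 500 bp start window gave 19.6% and 21.1%, a 2500 bp window 26.5% and 26.6%, and genes of known strand 17.4% and 18.2%. Counting peaks within 500 bp as shared gave a WT start share of 20.7%. The KI file is longer than the WT file, so counts without the cut favour KI. No paired analysis was possible because each genotype had 1 ATAC-seq library and the lists carry no replicate number. Read depth is unknown, so absence of a peak means that none was called.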
